A study of Mus musculus with 7 samples.

Results

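The cytosolic ribosomal protein genes of Beta-TC6 cells were taken from the table of gene counts by symbol: Rpl or Rps followed by a digit, together with Rpsa, Rplp0, Rplp1 and Rplp2, without the Rps6k kinases and without symbols containing -ps. Of 23329 symbols, 86 matched and 83 held at least 10 counts over the 7 libraries. The 3 left out, Rpl3l, Rpl10l and Rpl39l, are paralogs known from muscle or testis. All 83 passed the filter on low counts and were tested. They comprise 49 large-subunit genes, 33 small-subunit genes and Rps19bp1, which is taken by its symbol but encodes a binding partner of Rps19 and not a subunit. The symbol Rps4y2 is annotated as Rps4l, a transcribed processed pseudogene related to Rps4x.

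Beta-TC6 is an insulin-secreting line from the pancreatic tumour of a transgenic mouse in which an insulin promoter drove a viral T antigen, so all libraries come from 1 tumour line. Genotype was wild type throughout, and every culture was synchronised by exposure to 10 µM forskolin, which raises cAMP, for 1 h. The comparison was of 3 libraries from cells given IL1B, interleukin-1 beta, with 4 from cells given vehicle (Veh), and it addresses how this inflammatory cytokine changes the beta-cell transcriptome. For the IL1B dose, the length of exposure and the harvest time, the sources used here give no value. The labels do not say whether libraries came from separate cultures, so each p-value reflects the scatter of these libraries alone, and that scatter may be technical.

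The ribosome is built from ribosomal RNA and one copy of most of these proteins, and its small subunit reads the mRNA while the large subunit joins amino acids. Many of these mRNAs begin at a C followed by a run of pyrimidines, the terminal oligopyrimidine tract, through which mTORC1 and the RNA-binding protein LARP1 control their translation and stability. Beta cells devote much of their protein synthesis to proinsulin.

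The sequences around the annotated starts are shown because they hold the tract when the annotated start is the one in use. Each run has 30 bases, 15 before the start and 15 from it, 5′ to 3′ on the gene's strand, from RefSeq on GRCm38.p6. Capitals mark the longest run of C and T that begins with C within 10 bases of the start. The first 6 are the genes, among the 9 discussed next, that had an entry. Rps6 and Rps27 carry long runs, and Rpl22l1 is a paralog of Rpl22.
Rps9 (chr7:3704026-3704055, + strand): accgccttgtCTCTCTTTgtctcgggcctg
Rplp2 (chr7:141447636-141447665, + strand): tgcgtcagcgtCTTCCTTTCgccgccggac
Rps2 (chr17:24720048-24720077, + strand): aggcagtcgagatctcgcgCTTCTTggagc
Rpl35a (chr16:33056438-33056467, + strand): gcggggcgtgcgtCCCacaaggccgcgcgg
Rpl41 (chr10:128549154-128549183, - strand): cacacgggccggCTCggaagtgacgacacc
Rps3 (chr7:99483695-99483724, - strand): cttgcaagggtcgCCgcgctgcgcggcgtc
Rps6 (chr4:86857353-86857382, - strand): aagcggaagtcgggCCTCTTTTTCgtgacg
Rps27 (chr3:90213634-90213663, - strand): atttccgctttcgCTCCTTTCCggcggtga
Rpl22l1 (chr3:28805493-28805522, + strand): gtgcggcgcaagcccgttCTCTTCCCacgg

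Of the 83 genes, 62 had a RefSeq entry. A run of C and at least 4 further pyrimidines near the start was found in 33 of them (53.2%), against 30.8% of 27025 genes, taking the first entry of each. With at least 6 further pyrimidines the shares were 40.3% and 12.2%. In the 300 bases from 250 before to 50 after the start, on either strand, CCGGAAG, the core of ETS-factor sites, was present in 38.7% against 9.12% of genes. AANATGGC, of YY1 type, was present in 19.4% against 6.23%, and GGGCGG, of SP1 type, in 62.9% against 35.9%; the letters of these motifs can overlap one another. An NF-kB consensus was matched in 0 of the 62 windows and in 1.62% of all. These are matches of letters in a window and do not show binding.

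Over all 7 libraries, no ribosomal protein gene passed the threshold with IL1B. The members' fold changes lay on both sides of 0, with 43 of 83 positive (51.8%, against 47.8% of all genes tested) and a median log2 fold change of 0.00243, against -0.00867 for all genes. Calls required p under 0.05 after Benjamini-Hochberg adjustment over all 12480 genes tested, from edgeR's quasi-likelihood test. Of these genes, 11.0% passed, 968 higher (7.76%) and 406 lower (3.25%) with IL1B. At an unadjusted p under 0.05 there were 6 members, 4 higher (Rpl30, Rps9, Rplp2 and Rpl7l1) and 2 lower, Rpl17 among them; 22.6% of all genes reached that level. DESeq2 and limma-voom called 0 members as well. The median standard error of a member's log2 fold change was 0.0706, and 77 of 83 had an absolute log2 fold change under 0.2.

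The members together took 3.604%, 4.185%, 3.628% and 3.533% of all counts in vehicle libraries 1 to 4, and 3.736%, 3.565% and 3.704% in IL1B libraries 1 to 3. The second vehicle library was the highest of the 7, and the IL1B values fell between it and the lowest of the others. The means were 3.738% ± 0.301 (SD, n = 4) for vehicle and 3.668% ± 0.0909 (SD, n = 3) for IL1B, a difference smaller than the vehicle spread. Without the second vehicle library the vehicle mean was 3.588% ± 0.0494 (SD, n = 3). In bulk RNA, a smaller share of cells with an mRNA and less of it per cell cannot be told apart.

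**Figure D1:**
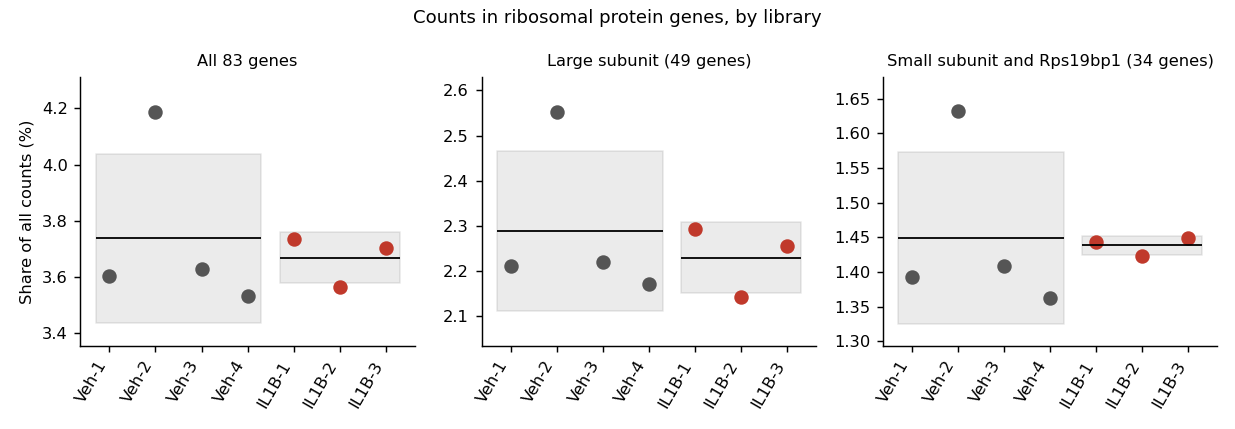
Share of all counts (%, vertical axes that do not start at 0) in all 83 genes, in the 49 large-subunit genes and in the other 34, for each library (vehicle grey, IL1B red). Lines are group means and shading is 1 SD; the second vehicle library is the highest point of each panel, at 4.185% for all 83.

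That library was the highest of the 4 vehicle libraries in 80 of the 83 genes (96.4%, against 30.9% of all genes) and the lowest in 0 (33.2% of all genes). The exceptions were Rpl26, Rpl34 and Rps27, each counted mostly under a similar gene, as described further on. The median member stood 19.5% above the mean of the other vehicle libraries (a log2 difference of 0.258), while the median of all genes stood at -0.009 on the log2 scale. Large and small subunits were both raised: 2.553% against 2.172% to 2.219% of counts for the large, and 1.632% against 1.362% to 1.409% for the small subunit with Rps19bp1. The elevation reached Rps6, the phosphorylated target of the S6 kinases, at 932 CPM (counts per 1000000 of each library's TMM-adjusted total over tested genes) against 810 to 817 CPM. It was also present in Rpl13a, a large-subunit protein released in interferon-treated cells, at 1194 CPM against 994 to 1015.

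Transcript length moved with this elevation. Members had a median annotated transcript length of 775 bases, against 2908 for all tested genes. Among genes that are no members, the second vehicle library lay above its group mean by a median log2 of 0.112 for transcripts up to 500 bases and 0.149 from 501 to 1000. The same median was -0.103 for transcripts over 4000 bases, and 0.193 for the members. Across genes, this deviation had a Spearman rho of -0.523 with length, against 0.199 to 0.289 in the other vehicle libraries. All of these deviations are taken from the same group mean, so a trend in 1 library forces opposite trends in the others of its group. In the IL1B libraries the rho ran from -0.019 to 0.023. The part of length in the members' values was not tested beyond the fit with the length and GC trend removed.

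Leaving out the second vehicle library, 9 members rose with IL1B and 0 fell: Rps9, Rpl30, Rps3, Rpl35a, Rplp2, Rps4y2, Rpl8, Rpl41 and Rps2. Their increases were 1.12-fold to 1.32-fold, with adjusted p (edgeR) from 0.00464 to 0.0483. This is 10.8% of members, close to the 9.09% of 12405 genes called higher in that fit (4.75% lower, 13.8% in either direction). What differed more from all genes was the direction: 67 of 83 members were positive (80.7%, against 48.7%), with a median log2 fold change of 0.0755 against -0.00512. Under total-count scaling of the same libraries 53 were positive (63.9%, against 39.6%), with a median of 0.0362 against -0.0444. IL1B and vehicle values did not overlap in 32 members, all higher with IL1B (38.6%), where 30.9% of all genes did not overlap and 16.2% were higher in every IL1B library. With all 7 libraries only Rpl4 and Rpl7l1 did not overlap, against 21.0% of all genes. The left-out library stood above its group mean in all 83 members and was the highest of its group in 80. Leaving it out therefore lowers their vehicle values, so the higher counts of positive and of non-overlapping members are partly set by that choice.

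Length moved with this result too. In the fit without the second vehicle library, non-member genes had a median log2 fold change of 0.063 for transcripts up to 500 bases, 0.048 from 501 to 1000, 0.031 from 1001 to 2000 and -0.048 over 4000. With each library's trend with length and GC content removed, 5 members were called in that fit (Rpl30, Rpl7l1, Rps20, Rps3 and Rps9), where 13.3% of all genes were. The length was that of 1 annotated transcript per gene, 3706 bases for Rps20, 2606 for Rpl7l1 and 1908 for Rps3. If shorter transcripts are in use, these genes were corrected as longer than they are, so their calls are not shown to be free of the trend. The members' median then fell from 0.0755 to 0.0217, with 46 of 83 positive. With all 7 libraries and the trend removed, Rps9 and Rpl7l1 were called (13.7% of all genes). DESeq2 without the second vehicle library called 6 of the 9 (7.23% of members, against 6.56% of all genes called higher), leaving out Rps4y2, Rpl41 and Rps2.

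**Figure D2:**
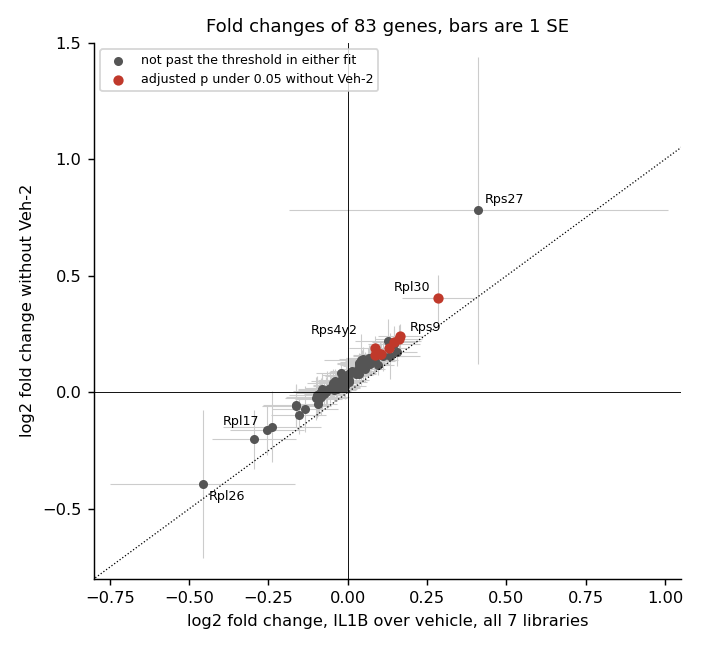
Log2 fold change of IL1B over vehicle for the 83 genes with all 7 libraries (horizontal) and without the second vehicle library (vertical), with bars of 1 standard error and the line of equality dotted. Points lie above the line, a shift set by leaving out a library that stood above its group mean in all 83 genes. The 9 genes called without that library (red) are between 0.16 and 0.40 on the vertical axis.

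Rps9 is a small-subunit protein that binds ribosomal RNA early in assembly and lines the mRNA entry channel. Its vehicle values were 484, 580, 489 and 467 CPM and its IL1B values 532, 614 and 553 CPM. Only the second vehicle library reached the range of the IL1B libraries. The log2 fold change was 0.17 ± 0.07 (SE; adjusted p = 0.168, edgeR) with all libraries and 0.24 ± 0.05 (adjusted p = 0.00464) without that library.

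Rps3, at the mRNA entry channel, also acts in DNA repair and is known as a partner of NF-kB subunit p65. It measured 695, 827, 697 and 683 CPM in vehicle and 739, 880 and 792 CPM in IL1B libraries. The IL1B values were above 3 of the 4 vehicle libraries, and the second IL1B library was the highest of all. Its log2 fold change was 0.15 ± 0.07 (SE; adjusted p = 0.223, edgeR) with all libraries and 0.22 ± 0.06 (adjusted p = 0.0119) without the second vehicle library. Rps2, beside Rps3 at the entry channel, measured 855, 968, 820 and 800 CPM in vehicle and 856, 996 and 920 CPM in IL1B libraries. Its first IL1B library was level with the first vehicle library.

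Rplp2 is an acidic protein of the stalk, which recruits elongation factors. It measured 274, 341, 299 and 287 CPM in vehicle and 311, 367 and 330 CPM in IL1B libraries. Without the second vehicle library its log2 fold change was 0.23 ± 0.06 (SE; adjusted p = 0.0142, edgeR). Its stalk partner Rplp1 measured 367, 457, 413 and 359 CPM against 409, 399 and 388 CPM, with overlapping groups in either fit. Rplp0, the base of the stalk and the most abundant member by counts, measured 1529, 1772, 1474 and 1498 CPM against 1597, 1373 and 1500 CPM. Its log2 fold change was -0.07 ± 0.07 with all libraries and -0.01 ± 0.05 without the second vehicle library, and it was called in neither.

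Among the other large-subunit genes called without that library, Rpl35a measured 294, 338, 300 and 274 CPM in vehicle and 326, 332 and 331 CPM in IL1B libraries. Its IL1B libraries all lay above vehicle libraries 1, 3 and 4. Rpl8, which lies close to the peptidyl transferase centre, measured 673, 777, 677 and 659 CPM against 735, 787 and 725 CPM. Rpl41, a very short, basic peptide, measured 1019, 1273, 1136 and 1025 CPM against 1152, 1242 and 1151 CPM. In all of these the second vehicle library lay within or above the IL1B range. Rps4y2, the Rps4x relative, measured 134, 174, 132 and 137 CPM against 159, 151 and 150 CPM. Rps4x itself, the X-linked small-subunit gene, measured 542, 629, 525 and 541 CPM against 563, 519 and 580 CPM and was called in neither fit (adjusted p = 0.941 and 0.561, edgeR).

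**Figure D3:**
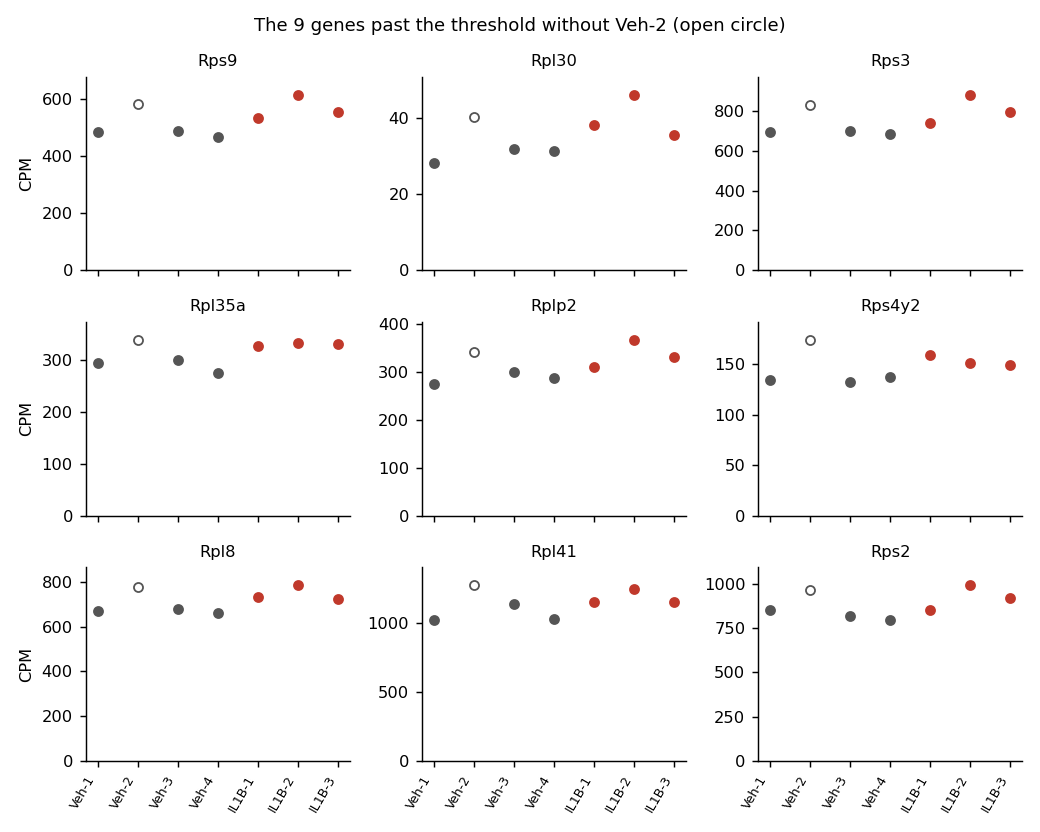
CPM of the 9 genes called without the second vehicle library, by library, with vehicle in grey, IL1B in red and the second vehicle library as an open circle; vertical axes start at 0. In Rps9 the open circle is at 580 CPM, and the filled vehicle points run from 467 to 489.

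Rpl30, a large-subunit protein at the interface of the subunits, had the largest fold change of the 9. It measured 28.2, 40.1, 31.7 and 31.2 CPM in vehicle and 38.2, 46.0 and 35.6 CPM in IL1B libraries. The log2 fold change was 0.29 ± 0.11 (SE; adjusted p = 0.133, edgeR) with all libraries and 0.40 ± 0.10 (adjusted p = 0.0114) without the second vehicle library. However, this row held 12.5% of the counts shared between Rpl30 and Gm12191, a processed pseudogene on chromosome 11 that matches 347 of 348 aligned bases. Gm12191 measured 247, 286, 238 and 231 CPM against 264, 228 and 255 CPM, with a log2 fold change of 0.06 ± 0.06 (adjusted p = 0.539) without the second vehicle library. Summed, the genes gave 276, 326, 270 and 262 CPM against 302, 274 and 291 CPM, and the log2 ratio of group means without that library fell to 0.102.

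Such copies are general in this family: 72 of the 83 genes have at least 1 other annotated gene that matches at least 30% of the transcript at 95% identity or more, and for 70 at least 1 is a pseudogene. For 13 members a similar gene has its own row with at least 10 counts, and for 4 that row holds most of the sum. How reads that match several genes were counted is a step that the sources used here do not describe, so the level of each such member is uncertain. The pairs are shown over 30 coding bases of the member's GENCODE transcript, with the differing base in capitals, to show 1 of the differences that tell the gene from its copy. The copies align over 348 of 570 bases of Rpl30, 438 of 526 of Rpl26 and 354 of 480 of Rpl34, with 1, 2 and 2 mismatches there.
Rpl30: cgtgctgggctacaaGcagactctgaagat
Gm12191: cgtgctgggctacaaAcagactctgaagat
Rpl26: agttcaggttgttcgCggacactacaaagg
Gm15772: agttcaggttgttcgTggacactacaaagg
Rpl34: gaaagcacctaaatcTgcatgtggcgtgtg
Rpl34-ps1: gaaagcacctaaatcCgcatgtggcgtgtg

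Rps27 had the widest range between libraries. This zinc-finger protein of the small subunit measured 1.58, 19.3, 25.4 and 1.86 CPM in vehicle and 20.1, 2.16 and 24.1 CPM in IL1B libraries. Libraries of both groups fell into a low and a high set, 16.1-fold apart at the extremes. Gm9846, annotated as Rps27rt, a protein-coding gene on chromosome 9, is identical over all 341 aligned bases of the 345 in Rps27. It measured 222, 254, 190 and 235 CPM against 227, 168 and 195 CPM. The sum ranged only 1.61-fold, from 170 to 273 CPM, and Rps27 held 5.96% of it. The log2 fold change of the Rps27 row was 0.41 ± 0.60 (SE; adjusted p = 0.756, edgeR).

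Rpl26, a large-subunit protein known to bind p53 mRNA, measured 16.5, 17.2, 18.9 and 7.80 CPM in vehicle and 4.23, 15.5 and 14.3 CPM in IL1B libraries. Its row held 3.53% of the sum with Gm15772, a processed pseudogene on chromosome 5 with 2 mismatches in 438 bases. Its log2 fold change of -0.46 ± 0.29 (SE; adjusted p = 0.389, edgeR) was the lowest of the members. The summed log2 ratio of group means was 0.044, opposite in sign. For Rpl34, with 14.4% of the sum with Rpl34-ps1 on chromosome 6, the row measured 27.4 to 34.7 CPM in vehicle and 32.1 to 36.1 CPM in IL1B libraries, with overlap between groups.

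**Figure D4:**
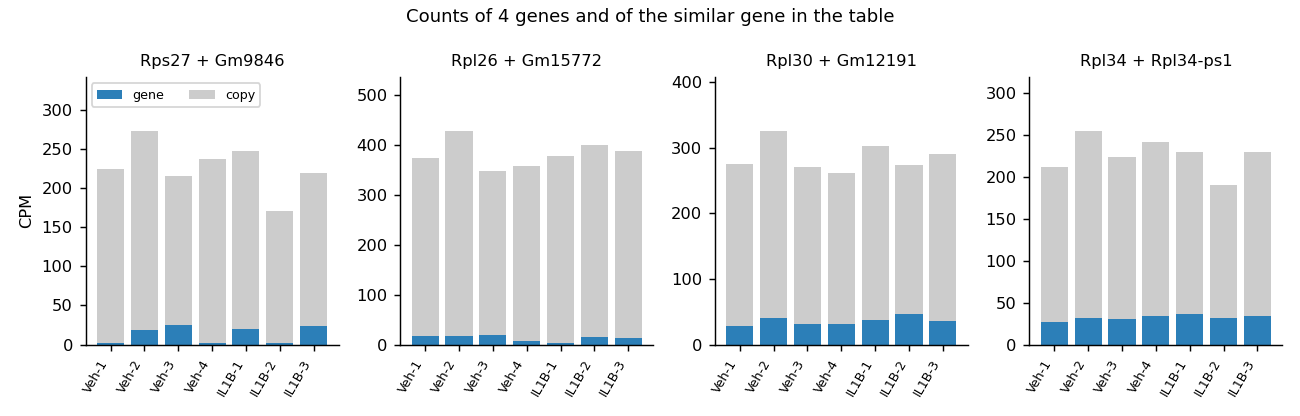
CPM of Rps27, Rpl26, Rpl30 and Rpl34 (blue) stacked on that of the similar gene with its own row (grey), by library. The gene is the smaller part in every bar, and the summed CPM of Rps27 and Gm9846 runs from 170 to 273.

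The 11 genes without a similar annotated gene included Rpl7l1, Rpl8, Rpl22, Rpl39, Rps3, Rps4y2, Rps15a, Rps20, Rps27l and Rps19bp1. A match had to cover at least 30% of 1 annotated transcript. That transcript had 5130 bases for Rps15a, 3706 for Rps20, 2606 for Rpl7l1 and 1908 for Rps3, against a median of 775 over members. A short copy can miss the 30% for such genes, so they are not shown to be free of copies. Of the 11, 10 were positive without the second vehicle library, with a median log2 fold change of 0.141, and 3 were called (Rps3, Rpl8 and Rps4y2), where 48.7% of all genes were positive and 9.09% called higher. With the length and GC trend removed as well, their median was 0.0842 and again 3 were called. These were Rps3, Rpl7l1 and Rps20, while Rpl8 and Rps4y2 were not called. The trend removal used the same long transcripts for these called genes. With all 7 libraries 9 of 11 were positive, with a median of 0.0843 and 0 called. Their share of counts was 0.3213%, 0.3762%, 0.3302% and 0.3165% in vehicle and 0.343%, 0.3625% and 0.3419% in IL1B libraries. Only the second vehicle library was above the IL1B range.

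The second IL1B library differed from the others of its group in the members more than in other genes. Over members, the chi-square per degree of freedom between it and the first and the last IL1B library was 33.6 and 23.3, against 3.17 between those. Over all genes the same values were 4.20, 2.87 and 1.69. Vehicle library 3 showed a smaller excess of this kind. Between it and vehicle libraries 1 and 4 the chi-square was 6 and 5.47 over members, against 1.55 and 1.52 over all genes. Between vehicle libraries 1 and 4 it was 2.11 over members and 1.6 over all genes. For a given relative difference this measure grows with the count. Members had a median of 415.4 CPM against 35.0 for all tested genes, so their values are not on a like scale. The second IL1B library was the lowest of its group in 47 members and the highest in 24, where 37.3% and 36.9% of all genes were. Among genes of at least 20 CPM, 12.3% of the 81 members were more than 0.4 log2 below the other IL1B libraries, against 1.76% of 8118 genes. Across members, the departure of the second IL1B library from the others of its group had a rho of 0.52 with that of vehicle library 3. The latter was taken from the mean of vehicle libraries 1 and 4, without the second vehicle library. The cause of the spread in either library was not tested.

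Among the members lowest in the second IL1B library were Rps27, Rpl31 and Rpl17. Rpl31, near the tunnel exit, measured 265, 314, 225 and 258 CPM in vehicle and 275, 138 and 261 CPM in IL1B libraries. Rpl17, at the tunnel exit, measured 241, 291, 214 and 239 CPM against 248, 155 and 217 CPM. In Rpl31 and Rpl17, IL1B libraries 1 and 3 lay within the vehicle range, and only the second lay below it. Their log2 fold changes with all libraries were -0.24 ± 0.15 and -0.25 ± 0.12 (SE), neither past the threshold. Rpl32 behaved alike at 269 CPM in that library, against 396 and 381 in the others and 351 to 471 in vehicle. Rps20 and Rpl30 were instead high in it, Rps20 at 482 CPM against 393 and 378 in the others.

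**Figure D5:**
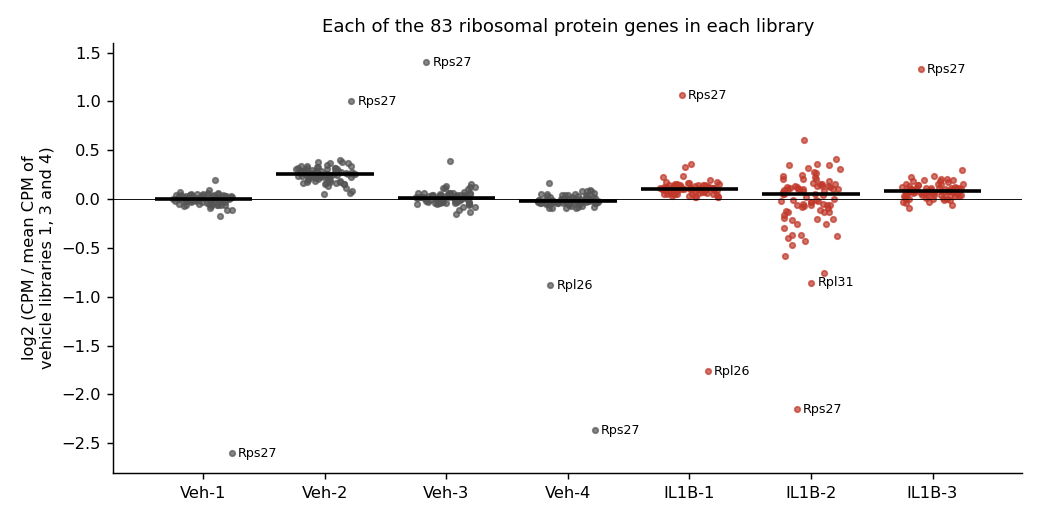
Log2 ratio of each gene's CPM to its mean in vehicle libraries 1, 3 and 4, for the 83 genes in each library, with medians as bars and names beside Rps27, Rpl26 and Rpl31 where beyond 0.7. The second vehicle library is shifted upward as a whole, by a median of 0.258, and the second IL1B library is spread to both sides.

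Without the second library of either group, a choice made after seeing the data, 82 of 83 members were positive, against 6144 of 12508 genes tested. Of the members 18 were called, all higher with IL1B (9.36% of all genes were called higher and 14.8% in either direction). The left-out vehicle library stood above its group mean in all 83 members. The left-out IL1B library was the lowest of its group in 47 and the highest in 24. The counts of positive and called members are therefore partly set by that choice. The members' median log2 fold change was 0.0936, against -0.00384 for all genes, and 7 of the 9 genes named above were among the 18. The others among the 18 included Rpl7l1, Rpl36a, Rpl36al, Rpsa and Rps14. This fit has 3 vehicle and 2 IL1B libraries and no trend with length removed.

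Paralogs and proteins with roles outside the ribosome did not pass the threshold with all libraries. Rpl7l1, a relative of Rpl7 with a role in biogenesis, measured 98.2, 99.0, 94.5 and 92.8 CPM in vehicle and 105, 104 and 112 CPM in IL1B libraries. Its groups did not overlap and its second vehicle library was not set apart, but the log2 fold change of 0.16 ± 0.06 (SE) did not pass (adjusted p = 0.136, edgeR). Rpl7 measured 503 to 576 CPM in vehicle and 512 to 538 CPM in IL1B libraries. Rpl22, which binds structured RNA, measured 246 to 289 CPM against 249 to 273, and its paralog Rpl22l1 30.2 to 39.3 CPM against 31.9 to 39.2. Rps27l, a p53-responsive paralog of Rps27, measured 94.7 to 118 CPM against 87.6 to 109. Rpl36a and Rpl36al, near-identical proteins, measured 136 to 163 CPM against 147 to 156, and 500 to 623 CPM against 417 to 566. In each of these pairs the groups overlapped, Rpl7l1 excepted.

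Rpl5 and Rpl11 form with 5S RNA the particle that can bind Mdm2 when ribosome assembly is disturbed. Rpl5 measured 818 to 955 CPM in vehicle and 768 to 885 CPM in IL1B libraries, and Rpl11 565 to 712 CPM against 597 to 643. Their log2 fold changes were -0.04 ± 0.06 and 0.01 ± 0.07 (SE). Rpsa, also a laminin receptor, measured 389 to 479 CPM against 429 to 447, and Rps6 810 to 932 CPM against 825 to 887. Rps27a, made as a fusion with ubiquitin, measured 503 to 604 CPM against 514 to 540. Rpl3, at the peptidyl transferase centre, measured 567 to 651 CPM against 590 to 604, and Rpl39, at the exit tunnel, 227 to 262 CPM against 248 to 264. Rps19bp1, the non-ribosomal row, measured 24.5 to 32.6 CPM against 24.6 to 32.9. All overlapped, and the IL1B range lay inside the vehicle range for Rpl11, Rpsa, Rps6, Rps27a and Rpl3.

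Although the proteins are made in about equal number, counts per transcript length differed widely in vehicle cells. The mean level per kilobase of annotated transcript had a median of 510 CPM per kb over members and an interquartile range of 322 to 770. Rpl41 was highest at 2050 CPM per kb, followed by Rpl10 at 1450 and Rplp0 at 1150. The lowest were Rpl26 at 28.7, Rps19bp1 at 32.7, Rps27 at 34.8 and Rps15a at 34.9 CPM per kb. Rpl26 and Rps27 are rows with most counts under a copy. The length is that of 1 annotated transcript, and for Rps15a it is 5130 bases, the longest among members. The low values of Rps15a, and of Rps20 at 102 CPM per kb over 3706 bases, therefore depend on the transcript chosen. In counts alone, members had mean levels of 13.5 to 1535 CPM with a median of 415.4, against 35.0 for all tested genes. Rpl13a and Rpl6 stood with Rplp0, Rpl10 and Rpl41 among the 5 highest by counts, Rpl6 at 855 to 982 CPM in vehicle and 910 to 956 CPM in IL1B libraries.

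Other genes that share the pyrimidine tract or build the ribosome were counted against the same background. With all 7 libraries 11.0% of all genes were called, and without the second vehicle library 13.8%. Of 21 translation factors and other non-ribosomal genes with such tracts, 1 rose with all 7 libraries and 0 fell, with a median log2 fold change of 0.0344. It was Pabpc1, the poly(A)-binding protein, at 526 to 590 CPM in vehicle and 598 to 670 CPM in IL1B libraries (1.14-fold, adjusted p = 0.0337, edgeR). That call was lost under upper-quartile (adjusted p = 0.0730, edgeR) and total-count scaling (0.0842), and on leaving out the first (0.0989) or the third (0.0827) vehicle library, or the first (0.0828) or the third (0.227) IL1B library. Eef1a1 measured 3565 to 3902 CPM against 3664 to 3777, and Fau, whose product carries a small-subunit protein, 433 to 542 CPM against 411 to 486. Of 30 biogenesis factors, 1 rose and 0 fell (median 0.0552). It was Ltv1, an assembly factor of the small subunit, at 59.8 to 63.3 CPM against 72.5 to 84.1 (1.24-fold, adjusted p = 0.00677), and its adjusted p was 0.0514 without the second IL1B library. With the second vehicle library left out, edgeR also called Fbl, Rrs1 and Nmd3, each higher, where 9.09% of all genes were called higher. In those libraries limma-voom called Ltv1, Nmd3 and Rrs1, whereas DESeq2, and edgeR with total-count scaling, called Ltv1 alone of this list.

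Of 14 RNA polymerase I genes, 0 passed with all libraries by edgeR, DESeq2 or limma-voom. At an unadjusted p under 0.05 by edgeR 1 was higher, a level that 22.6% of all genes reached in either direction. When the second vehicle library was left out, edgeR called 1, Polr1c, a subunit shared with RNA polymerase III, with a log2 fold change of 0.26 ± 0.09 (SE; adjusted p = 0.0477), and DESeq2 and limma-voom called 0. Of 19 genes of mTORC1 control, 2 rose and 0 fell, and both encode restrainers of mTORC1. Ddit4 measured 14.9 to 16.6 CPM in vehicle and 36.6 to 40.4 CPM in IL1B libraries (2.44-fold, adjusted p = 4.09e-09, edgeR). Sesn2 measured 44.0 to 48.7 CPM against 52.0 to 66.0 (1.27-fold, adjusted p = 0.012), and its adjusted p was 0.0832 without the second IL1B library. Mtor measured 68.4 to 86.0 CPM against 71.0 to 84.1, and Larp1 175 to 199 CPM against 192 to 203. Without the second vehicle library Eif4ebp1 rose and Eif4ebp2 fell, both translational repressors that mTORC1 inactivates. By DESeq2 in those libraries Eif4ebp1 was called and Eif4ebp2 was not (adjusted p = 0.0435 and 0.0832), and Sesn2 was not called either. With all 7 libraries edgeR called Eif4ebp2 lower without the low-count filter, under upper-quartile or total-count scaling, and with the length and GC trend removed. DESeq2 and limma-voom did not call it there.

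The mitochondrial ribosome, built from a separate set of nuclear genes, had 0 of 76 tested members called by edgeR, DESeq2 or limma-voom. At an unadjusted p under 0.05 by edgeR 2 were higher and 6 lower, where 22.6% of all genes reached that level. The median log2 fold change was -0.0137. Without the second vehicle library 2 were called by edgeR, Mrpl16 and Mrpl17, both higher, where 9.09% of all genes were called higher. The median was 0.0425, and limma-voom called the same 2 genes. In the same libraries DESeq2 called 0, and total-count scaling called 0 higher and 2 lower, with a median of 0.00318. Of 12 genes of ribosome rescue and quality control, 1 rose: Zfp598, which detects collided ribosomes, at 42.3 to 50.2 CPM in vehicle and 52.7 to 60.5 CPM in IL1B libraries (1.21-fold, adjusted p = 0.0387, edgeR). That call was lost with DESeq2 (adjusted p = 0.0834), under upper-quartile (0.0600) and total-count scaling (0.0736), and on leaving out the third (0.0830) or the fourth (0.122) vehicle library, or the second (0.178) or the third (0.0756) IL1B library.

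Libraries held 5335607 to 7513934 counts. Beta-cell markers summed to 34500 to 39700 CPM in vehicle and 37500 to 38800 CPM in IL1B libraries. Leukocyte markers summed to 2.44 to 4.22 CPM against 2.83 to 4.45, stromal and endothelial markers to 3.59 to 6.08 CPM against 5.02 to 6.38, and exocrine and duct markers to 4.50 to 7.50 CPM against 4.83 to 6.38, with Cpa1 and Prss2 at 0. Markers of other islet cells summed to 586 to 636 CPM against 527 to 581.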

How the data were processed

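RNA of 7 samples was measured as polyadenylated RNA, with NEBNext Ultra II libraries, per the labels' protocols; cultures had 15% serum. The authors deposited raw counts per gene symbol for the libraries. Per the submitters' processing notes, the study used mm10 and, with no role stated, R 4.1.0, DESeq2, RSEM, STAR and other tools. The aligner, counter, annotation, read length and strandedness for this table are not stated in the sources used here. Vehicle columns match titles 1 to 4. The table numbers IL1B columns 1 to 3 while titles give 1, 3 and 4, so these were assigned to the group only, and IL1B numbers here are the table's.

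Counts were tested with edgeR 4.0.16 (TMM, filterByExpr, quasi-likelihood F test, no covariate) in R 4.3.3, adjusting over all genes; standard errors are the size of the log2 fold change divided by the root of F. The test was checked on simulated counts. Totals of 5335607 to 7513934 make 3 counts equal 0.399 to 0.562 CPM of all counts. CPM are TMM-scaled over tested genes. Similar genes were found with blastn 2.17.0 among GENCODE transcripts of GRCm38. Alternatives were other scalings and filters, DESeq2 1.42.0, limma-voom 3.58.1, removal of a length and GC trend, and left-out libraries; those combining left-out libraries with another tool, or leaving out both second libraries, were added once the data had been seen. The members, lists and the left-out library were chosen with earlier results of these data known, so counts over lists are descriptions without a test. Named genes were members called in either fit, the 5 highest and lowest fold changes, the 5 most abundant, paralogs and stalk proteins by name, and up to 4 genes per other list by smallest adjusted p. Mrpl17, Rrs1, Rpl4, Rps20, Rpl34, Eef1a1, Fau, Mtor, Larp1 and the members listed with an alternative fit were named after their values were seen. Values of a few single genes are not reported here.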

Additional observations from a re-analysis of the deposited data

Results flagged for a closer look

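In the vehicle group, a sample was marked when its gap to the nearest other sample, divided by the group's range, exceeded Dixon's 95% critical value for 4 samples. Of 65 values examined 12 were marked, and all 12 were the second vehicle library. For independent values about 1 in 20 (3.25 of them) would be marked. These values come from the same 4 libraries, and some genes were named because they were called without the second vehicle library. The figure of 3.25 is therefore no expectation for this set. The share of counts in members was 4.185% there, against 3.533% to 3.628% in the others, and that of the large subunit 2.553% against 2.172% to 2.219%. The Spearman rho of its deviation with transcript length was -0.523, against 0.199 to 0.289. These deviations share the group mean, so the values of the other libraries are not independent of it.

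The small-subunit genes marked were Rps3 (826.8 CPM), Rps4y2 (174.3 CPM), Rps4x (629.0 CPM) and Rps6 (931.5 CPM). The large-subunit genes were Rpl8 (776.5 CPM), Rpl32 (471.3 CPM), Rpl13a (1194 CPM) and Rpl36a (162.7 CPM). Polr1c, a subunit of RNA polymerases I and III, measured 61.7 CPM against 52.9 to 54.0 CPM. For each of these genes the second vehicle library was the highest of the vehicle libraries.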

How the results depend on the processing

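No paired analysis was possible because the table numbers its IL1B columns 1 to 3 and the titles number these samples 1, 3 and 4, so columns cannot be tied to replicate numbers. Of the members, 0 passed under RLE, upper-quartile or total-count scaling, a minimum of 1 CPM in 3 libraries, DESeq2, limma-voom or TMM factors computed without the members. Leaving out single libraries gave 0 to 9 calls: 9 without the second vehicle library, 1 (Rpl17, lower) without the first IL1B library, and 0 otherwise. With no low-count filter 5 were called, Rpl30 higher and 4 lower, among them Rpl17, Rpl26 and Rpl31; with the length and GC trend removed 2, and 5 when the second vehicle library was also left out. Without the second vehicle library, DESeq2 called 6, limma-voom 9 and total-count scaling 5 (Rpl30, Rpl35a, Rplp2, Rps3 and Rps9); without the second library of each group 18 were called. Rpl36al then turned from a negative log2 fold change to 0.14 (adjusted p = 0.0132).

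The members' median log2 fold change ran from -0.0258 to 0.0755 over single left-out libraries, and the difference in share of counts from -0.137 to 0.08 percentage points. All genes called ran from 1021 to 1717. Under total-count scaling 844 genes were called higher and 556 lower, against 968 and 406 with TMM, and without the second vehicle library 911 and 960. Genes called in the other lists numbered 5, and 2 to 13 over left-out libraries (2 without the second IL1B, 3 without the third vehicle and 13 without the second vehicle library). They numbered 8 with no filter, 11 with the trend removed with or without the second vehicle library, 11 without both second libraries, and, without the second vehicle library, 11 by limma-voom, 4 by DESeq2 and 12 by total-count scaling; there edgeR's 13 were 12 higher and 1 lower, and those under total-count scaling 4 higher and 8 lower. Of 1260 values of single named genes under an alternative, 1144 kept their side of the threshold, among them 70 that changed sign without being called in either fit, 93 passed it only there, 22 lost it and 1 reversed (Rpl36al). The cause was not tested. 3 vehicle libraries and 3 IL1B libraries remain without the second vehicle library.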
